A study of Oryza sativa Japonica Group with 4 samples.

Results

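The bZIP transcription factor family of rice was examined in developing endosperm by RNA-seq. Its members were all transcript models whose description in the deposited table contains the word bZIP, except those of 3 loci that were left out by ID. This gave 70 transcripts of 55 genes, out of 67393 transcripts of 56797 genes in all. The rule used the descriptions and the IDs of these 3 loci, and no measured value enters it. It was set with earlier results of these data known. Plants of the japonica cultivar Nipponbare were moved 5 days after pollination either to high temperature (35°C day, 28°C night) or to control temperature (28°C day, 22°C night), with a day of 12 h, and were sampled after 5 days of treatment. Each temperature had 2 libraries of poly(A) RNA (replicates 1 and 2). No source states whether the replicates came from separate plants, so the p-values measure only the spread between these libraries, which may be technical. The labels name the tissue as endosperm, while the methods of the study speak of fresh seeds and of RNA taken from endosperm.

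bZIP proteins bind DNA as dimers, through a basic region followed by a leucine zipper, and many of them recognise sites with an ACGT core. In cereal endosperm, Opaque2-like bZIP factors activate storage protein genes, and in plants generally group A bZIP factors carry the abscisic acid (ABA) signal, which matters for seed maturation and for drought. Other members are released from the membrane of the endoplasmic reticulum (ER) when unfolded proteins accumulate there. The table describes these genes only as bZIP factors, apart from a locus described as RSG. The names RISBZ, OsbZIP, TRAB1, OsABF1 and RF2b are those in common use for these locus IDs and are given as background.

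The libraries held 7813601 and 6395533 reads at high temperature, against 11492692 and 8022185 reads at control temperature. Transcripts LOC_Os09g00999.1 and LOC_Os09g01000.1 together took 35.2% and 10.05% of the reads at high temperature and 8.51% and 25.9% at control temperature, so the scaling between libraries was done with TMM, which limits the weight of such transcripts. Glutelin transcripts, which define endosperm, had 203728 and 355918 CPM at high temperature against 295521 and 283881 CPM at control temperature (reads per 1000000 of the library total), and all 17 of them had reads in every library. The 29 prolamin transcripts, the other endosperm list, summed to 32630 and 47507 CPM at high temperature against 75233 and 87803 CPM at control temperature, with no overlap and no test of the sum. Markers of other seed tissues were also present. Over 34 late embryogenesis abundant transcripts the sum was 1108 and 511.1 CPM at high temperature, against 420.9 and 1247 CPM at control temperature. Over 7 oleosin transcripts it was 796.3 and 1213 CPM against 1043 and 970.1 CPM, and over 27 chlorophyll A-B binding protein transcripts 1525 and 939.7 CPM against 1593 and 737.2 CPM. The temperatures overlapped in the lists of late embryogenesis abundant, oleosin and chlorophyll A-B binding transcripts. The part of these tissues and of the prolamin difference in the bZIP values was not tested, and fewer cells of a type and less RNA per cell cannot be told apart in such bulk tissue.

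The 70 transcripts had 2790 and 2945 reads at high temperature and 5167 and 2292 reads at control temperature. Scaled by TMM, this was 402.4 and 411.1 CPM at high temperature against 342.2 and 379.4 CPM at control temperature. A read in an exon that several models share may be counted more than once. With 1 model per tested gene the sum was 332.5 and 351.0 CPM against 296.5 and 320.9 CPM. Scaled by the total of the library instead, it was 357.1 and 460.5 against 449.6 and 285.7 reads per 1000000, and the temperatures overlapped. Of the 70 transcripts, 54 had reads in all 4 libraries and 3 had none in any. A count of 0 allows up to 3 reads, or 0.384 and 0.469 CPM in the high temperature libraries and 0.261 and 0.374 CPM in the controls, for counting error only. A level of 1 CPM or more in 2 or more libraries was reached by 40 of the 70 (57.1%), which were tested, against 40.6% of all transcripts. These 40 belong to 30 genes and held 97.7% of the reads of the family. The 30 transcripts below the filter had a median of 8 reads over the 4 libraries together. They included the HY5-like LOC_Os06g39960.1, with 2 and 0 reads at high temperature against 6 and 1 at control temperature, and LOC_Os09g36910.1 (OsFD1, a flowering factor of the shoot apex), with 1 read in high temperature replicate 1 and 0 in the other libraries (an NA cell, read as 0, in control replicate 2). The 55 gene IDs carry 11 of the 12 chromosome numbers, and 12 of the genes have 2 or 3 transcript models.

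Levels are compared between genes as TMM-scaled RPKM, the reads per kilobase of transcript and per 1000000 reads after TMM scaling. Over the 4 libraries, 5 of the 70 transcripts had a mean of at least 10, 13 lay between 5 and 10, 19 between 1 and 5 and 33 below 1. The median of the tested members was 4.48, against 2.92 for all tested transcripts, and 7.24% of all tested transcripts lay above the most abundant bZIP transcript.

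**Figure D1:**
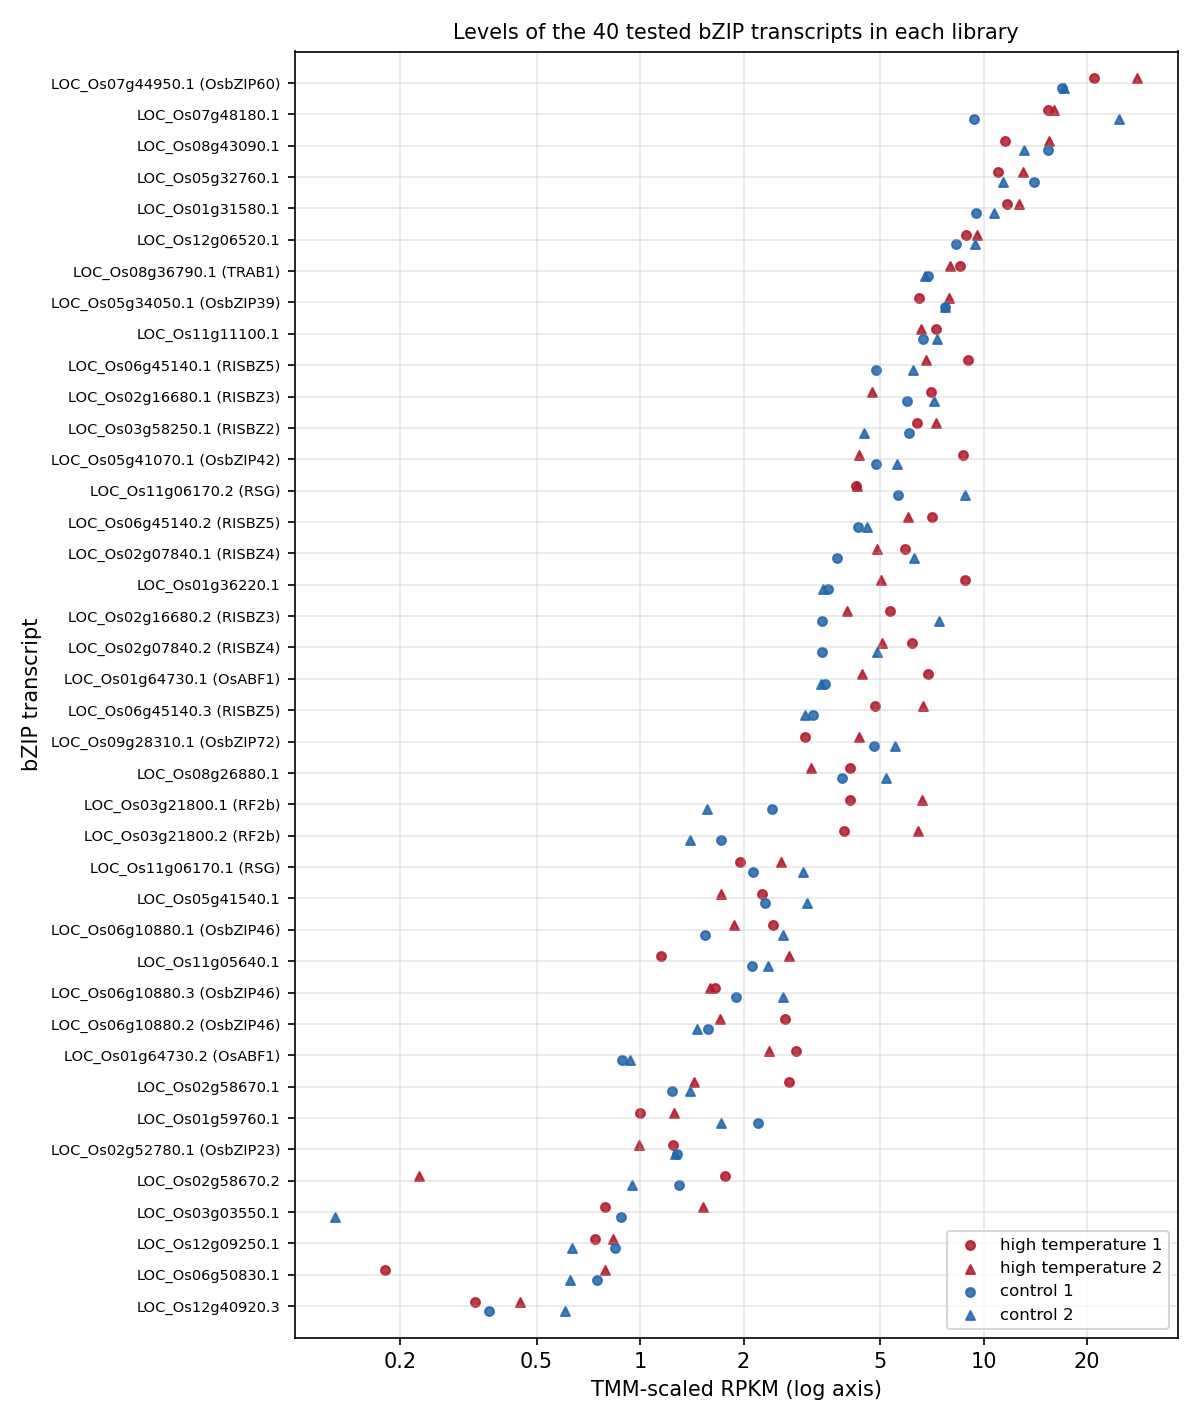
TMM-scaled RPKM (log axis) of the 40 tested bZIP transcripts in each library, ordered by their mean, with high temperature in red and control in blue, circles for replicate 1 and triangles for replicate 2. LOC_Os07g44950.1 (OsbZIP60) stands at the top, with 20.9 and 28.0 at high temperature against 16.9 and 17.1 at control temperature.

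The most abundant member was LOC_Os07g44950.1 (OsbZIP60), an ER membrane-bound factor of the unfolded protein response. Its level was 20.9 and 28.0 RPKM at high temperature, against 16.9 and 17.1 RPKM at control temperature. It was higher in each high temperature library than in the controls, which were nearly equal. The log2 fold change was 0.53 ± 0.29 (standard error, edgeR adjusted p = 0.794), or 0.27 without high temperature replicate 2. LOC_Os05g34050.1 (OsbZIP39), the other ER membrane-bound member, had 6.49 and 7.93 RPKM at high temperature, against 7.72 and 7.70 RPKM at control temperature. Its high temperature libraries lay on either side of the controls (log2 fold change -0.10 ± 0.27, standard error).

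The next 4 transcripts by level are known here only as bZIP factors. LOC_Os07g48180.1 had 15.4 and 16.0 RPKM at high temperature, against 9.35 and 24.8 RPKM at control temperature. The spread between its controls was far wider than the difference of the temperatures, and its log2 fold change of -0.10 became 0.75 without control replicate 2 and -0.66 without control replicate 1. LOC_Os08g43090.1 averaged 13.5 ± 2.76 RPKM at high temperature and 14.3 ± 1.64 RPKM at control temperature (SD, n = 2 each). LOC_Os05g32760.1 averaged 12.0 ± 1.41 RPKM at high temperature and 12.7 ± 1.86 RPKM at control temperature (SD, n = 2 each). The means of both transcripts differed by less than their SDs. LOC_Os01g31580.1 had 11.7 and 12.6 RPKM at high temperature, against 9.47 and 10.7 RPKM at control temperature, and did not overlap (log2 fold change 0.27 ± 0.27, standard error). LOC_Os12g06520.1 (9.05 RPKM over the 4 libraries) and LOC_Os11g11100.1 (6.95 RPKM) had log2 fold changes of 0.06 and -0.01.

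The effect of temperature on the family was read from a single edgeR fit of the 27358 transcripts that passed the filter. Both models of RF2b, model 2 of OsABF1, model 3 of RISBZ5 and LOC_Os01g36220.1 were higher at high temperature with an unadjusted p-value under 0.05, and none of these held after adjustment. None of the 40 bZIP transcripts had an adjusted p-value under 0.05, and neither did any other transcript (0% of all tested). The lowest adjusted p-value of a member was 0.412. DESeq2, which called 0.212% of all transcripts, and limma on log2(CPM + 1), which called 0.00366% of them, also called 0 of the 40. An unadjusted p-value under 0.05 was found for 5 of the 40, against 6.94% of all tested transcripts. All 5 were higher at high temperature, where 4.15% of all tested transcripts had such a p-value and were higher, and none was lower (2.79% of all). The 5 transcripts come from 4 genes, and models of 1 gene share reads. A fit with 1 transcript per gene kept the model of highest mean CPM, and there model 1 of RF2b and LOC_Os01g36220.1 had such a p-value. For OsABF1 and RISBZ5 it held model 1, so it did not test the models named above. Model 1 of OsABF1 had an unadjusted p of 0.0665 there and 0.0585 in the fit of all tested transcripts (edgeR). For model 1 of RISBZ5 the values were 0.134 and 0.126.

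The centre of the family lay close to that of all transcripts. The median log2 fold change of the members was 0.05, against 0.00 for all tested transcripts, with 21 of 40 above 0 (50.2% of all tested). With 1 transcript per gene, that of highest mean CPM, the median was 0.02 over 30 genes, against 0.01 over 18963 genes. The changes ran from -0.82 to 1.70, and their quartiles, -0.19 and 0.52, compared with -0.30 and 0.31 over all tested transcripts. Between replicates, the median absolute log2 ratio of the 40 transcripts was 0.39 between the high temperature libraries and 0.28 between the controls. Over all tested transcripts the values were 0.38 and 0.41, so the controls of the members lay closer together than those of all. The part of this in the counts below was not tested. The lower of the high temperature values exceeded the higher control value for 15 of the 40 (37.5%), against 19.1% of all tested transcripts, and the reverse held for 6 (15%), against 17.7%. The 15 belong to 11 genes. With 1 transcript per gene, 9 of 30 (30%) lay above, against 19.6% of all genes, and 4 (13.3%) below, against 17.2%. Scaled by total counts, 11 of the 40 (27.5%) lay above, against 12.6% of all, and 4 (10%) below, against 9.08%. A set test was not run on these counts.

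**Figure D2:**
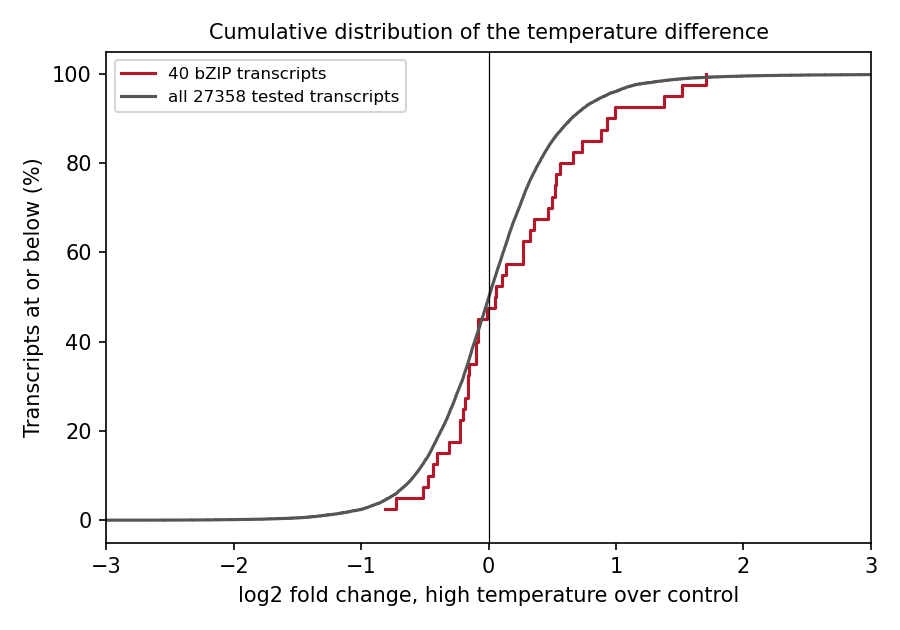
Percent of transcripts (y axis) at or below each log2 fold change of high temperature over control (x axis, shown from -3 to 3), for the 40 bZIP transcripts in red and all 27358 tested transcripts in grey. The curves meet near the median, 0.05 against 0.00, and part on both sides of it. The lower quartile is -0.19 against -0.30, and the upper quartile is 0.52 against 0.31.

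The largest differences were those of LOC_Os03g21800 (RF2b). RF2b and its partner RF2a are known as activators of the promoter of a rice virus that is active in vascular tissue. LOC_Os03g21800.1 had 4.09 and 6.59 RPKM at high temperature, from 48 and 80 reads, against 2.42 and 1.56 RPKM at control temperature, from 62 and 16 reads. LOC_Os03g21800.2 had 3.93 and 6.43 RPKM, from 42 and 71 reads, against 1.72 and 1.40 RPKM, from 40 and 13 reads. Both models were thus high in both high temperature libraries, most of all in replicate 2, and the temperatures did not overlap. The fold changes were 2.59 and 3.26, or 1.38 ± 0.38 and 1.70 ± 0.37 on the log2 scale (standard error). The unadjusted p-values were 0.00642 and 0.00173, and the adjusted p-values were 0.559 and 0.412 (edgeR). With 1 library left out at a time the log2 fold changes ran from 0.96 to 1.76 and from 1.28 to 2.01, both lowest without high temperature replicate 2. Without the filter on low counts, which tests 44411 transcripts and calls 0.822% of them, the adjusted p-values of the models were 0.0416 and 0.00517 in edgeR. With DESeq2 they were 0.882 and 0.444. Whether the shares of the models differed between the temperatures cannot be decided here. A read in an exon of both models may be counted for each, which the intervals below do not allow for. LOC_Os03g21800.1 held 53.3% and 53.0% of the reads of both at high temperature, against 60.8% and 55.2% at control temperature. The 95% Wilson intervals of these shares overlapped, from 43.1% to 63.3% and from 45.0% to 60.8% at high temperature and from 51.1% to 69.7% and from 37.5% to 71.6% at control temperature.

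The table describes RF2a (LOC_Os09g34060.1) without the word bZIP. It had 3.99 and 5.12 RPKM at high temperature against 8.23 and 3.47 RPKM at control temperature and overlapped (log2 fold change -0.39, edgeR adjusted p = 0.908), and the difference between RF2a and RF2b was not tested.

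**Figure D3:**
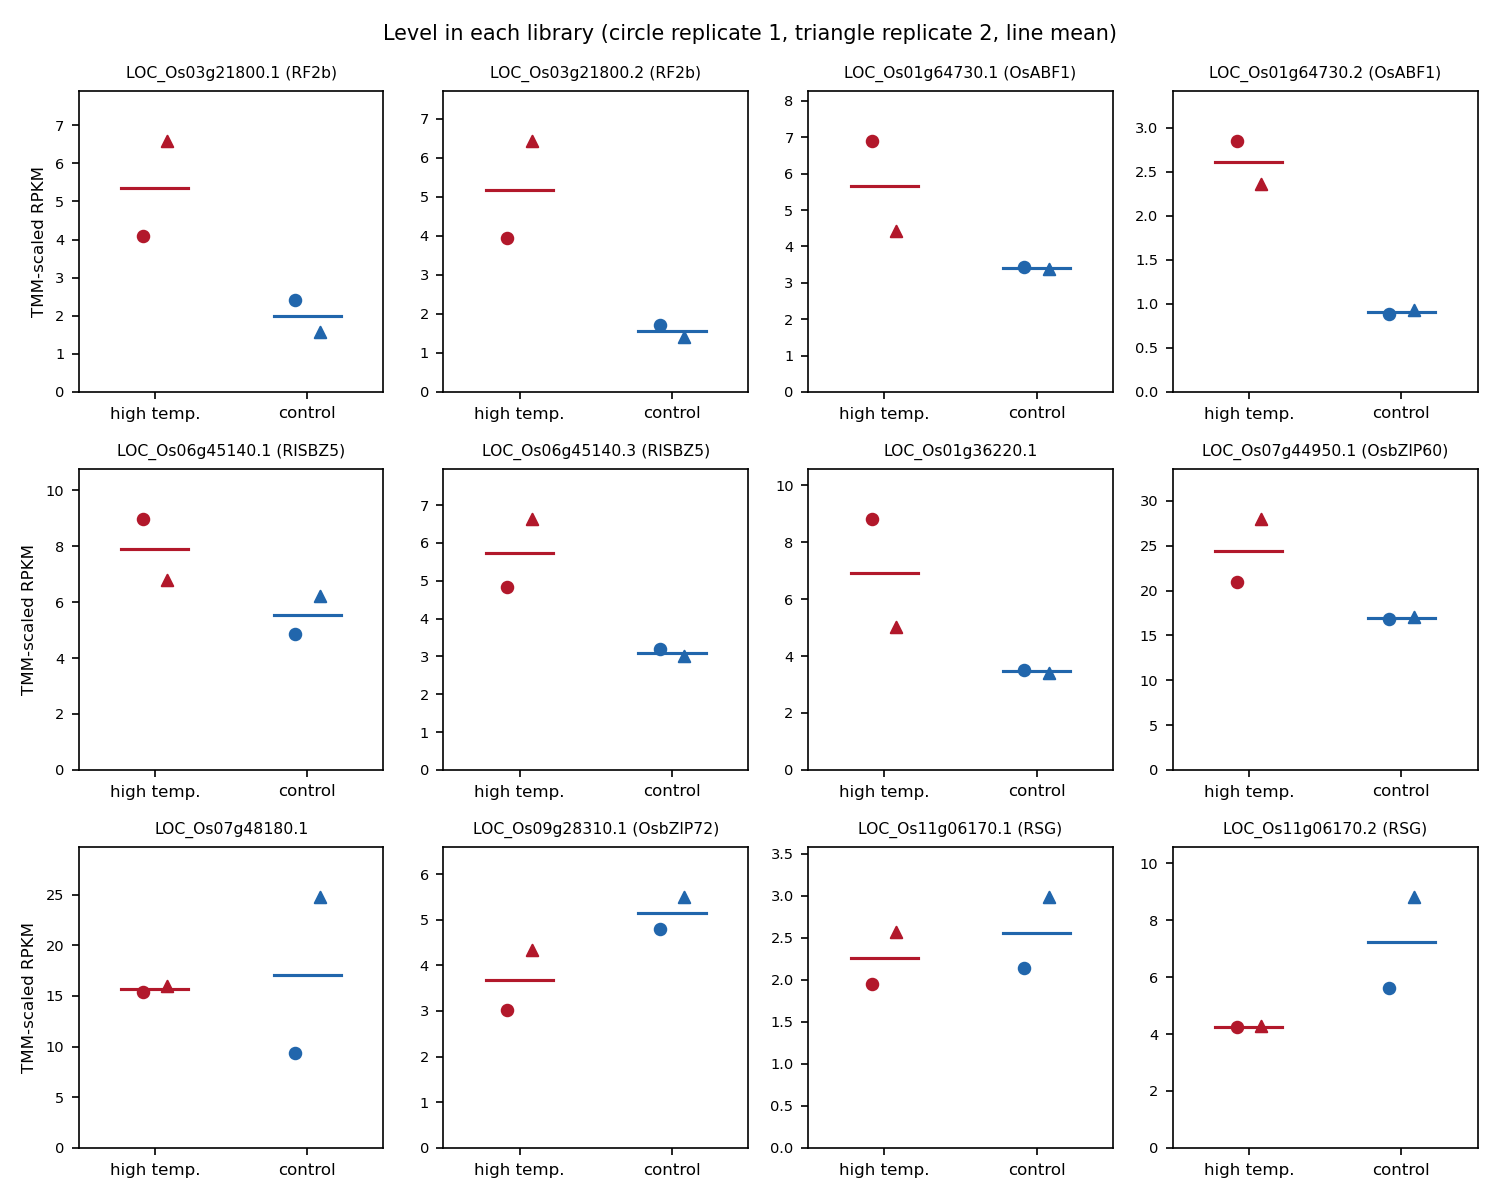
TMM-scaled RPKM of 12 bZIP transcripts in each library, with high temperature on the left (red) and control on the right (blue), circles for replicate 1, triangles for replicate 2 and a line for the mean of each temperature. The models of RF2b, OsABF1 and RISBZ5 lie higher at high temperature in both libraries, whereas LOC_Os07g48180.1 overlaps and OsbZIP72 and LOC_Os11g06170.2 (RSG) lie lower.

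Group A members mediate responses to ABA and are activated by SnRK2 kinases. LOC_Os01g64730 (OsABF1) was the member of this group with the largest difference. LOC_Os01g64730.2 had 2.85 and 2.36 RPKM at high temperature, from 28 and 24 reads, against 0.888 and 0.934 RPKM at control temperature, from 19 and 8 reads. Its replicates lay close together at each temperature, and the log2 fold change was 1.51 ± 0.41 (standard error, unadjusted p = 0.00586, adjusted p = 0.542 in edgeR), a 2.86-fold difference. With 1 library left out at a time it ran from 1.37 to 1.61. The longer model, LOC_Os01g64730.1, had 6.91 and 4.43 RPKM at high temperature, against 3.45 and 3.37 RPKM at control temperature. Its high temperature libraries differed more from each other, and the log2 fold change was 0.73 ± 0.33 (standard error, adjusted p = 0.736, edgeR), or 0.37 without high temperature replicate 1. Model 2 held 25.9% and 31.2% of the reads of both models at high temperature, against 17.9% and 19.0% at control temperature. The 95% Wilson intervals overlapped (18.6% to 34.9% and 21.9% to 42.2% against 11.8% to 26.3% and 9.98% to 33.3%). They do not allow for reads counted for both models, so whether the shares differed cannot be decided here.

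The other tested members of group A differed less. LOC_Os08g36790.1 (TRAB1), which binds ABA-responsive elements and interacts with VP1, was the most abundant of them, with 8.53 and 7.97 RPKM at high temperature against 6.89 and 6.75 RPKM at control temperature. The temperatures did not overlap, but the log2 fold change was only 0.27 ± 0.27 (standard error). LOC_Os09g28310.1 (OsbZIP72), a positive regulator of the ABA response, had 3.02 and 4.34 RPKM at high temperature against 4.79 and 5.50 RPKM at control temperature. It lay lower in both high temperature libraries (log2 fold change -0.48, standard error 0.32, edgeR adjusted p = 0.834), and leaving out high temperature replicate 1 gave -0.24, while leaving out replicate 2 of that temperature gave -0.79. LOC_Os05g41070.1 (OsbZIP42) had 8.73 and 4.34 RPKM against 4.87 and 5.60 RPKM at control temperature, so its high temperature libraries lay above and below the controls. Without high temperature replicate 1 its log2 fold change of 0.32 became -0.27. LOC_Os02g52780.1 (OsbZIP23), known for its role in drought tolerance, was low, with 1.24 and 0.992 RPKM against 1.28 and 1.26 RPKM at control temperature. The 3 models of LOC_Os06g10880 (OsbZIP46), a related drought factor, had log2 fold changes of 0.11, 0.50 and -0.44, each with a standard error of 0.38 to 0.40. Of the 9 tested transcripts of the group, 4 lay above both controls (19.1% of all tested transcripts) and 3 below (17.7% of all), and their median log2 fold change was 0.27.

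The Opaque2-like members were evenly expressed. All 8 of their transcripts were tested, and their mean levels lay between 4.42 and 6.72 RPKM. LOC_Os06g45140 (RISBZ5) was the gene of this group with the largest difference, and all 3 of its models lay above both controls at high temperature. LOC_Os06g45140.1 had 8.98 and 6.80 RPKM at high temperature against 4.86 and 6.22 RPKM at control temperature. LOC_Os06g45140.2 had 7.07 and 6.03 against 4.31 and 4.59, and LOC_Os06g45140.3 had 4.84 and 6.64 against 3.20 and 3.01. Model 1 was nearest to overlap and model 3 farthest from it. Their log2 fold changes were 0.52 ± 0.31, 0.56 ± 0.28 and 0.88 ± 0.32 (standard error), with adjusted p-values of 0.810, 0.767 and 0.652 (edgeR), and only model 3 had an unadjusted p-value under 0.05 (0.0241). Without high temperature replicate 2 the log2 fold change of model 3 was 0.61.

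LOC_Os03g58250.1 (RISBZ2) had 6.39 and 7.24 RPKM at high temperature, against 6.08 and 4.47 RPKM at control temperature. The temperatures were separate by a small margin (log2 fold change 0.35 ± 0.30, standard error), and leaving out control replicate 2 gave 0.16, while leaving out control replicate 1 gave 0.60. LOC_Os02g07840.1 (RISBZ4) had 5.89 and 4.90 RPKM against 3.75 and 6.28 RPKM, and LOC_Os02g16680.1 (RISBZ3) had 7.01 and 4.74 RPKM at high temperature against 5.97 and 7.15 RPKM at control temperature. Both of these models overlapped between the temperatures, and the sign of both depended on single libraries. For model 1 of RISBZ4 the log2 fold change of 0.14 became -0.23 without control replicate 1. For model 1 of RISBZ3 the value of -0.15 became 0.08 without high temperature replicate 2. Model 2 of RISBZ4 did not overlap, with 6.18 and 5.06 RPKM at high temperature against 3.38 and 4.89 RPKM at control temperature. Its log2 fold change was 0.47 ± 0.33 (standard error), and 0.19 to 0.73 with 1 library left out at a time. Model 2 of RISBZ3 overlapped, with 5.35 and 3.99 RPKM against 3.38 and 7.42 RPKM. Over the 8 transcripts of the group 5 lay above both controls (19.1% of all tested transcripts) and 0 below (17.7% of all), and the median log2 fold change was 0.41, against 0.00 for all tested transcripts. These 5 come from 3 genes, and none had an adjusted p-value under 0.05.

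**Figure D4:**
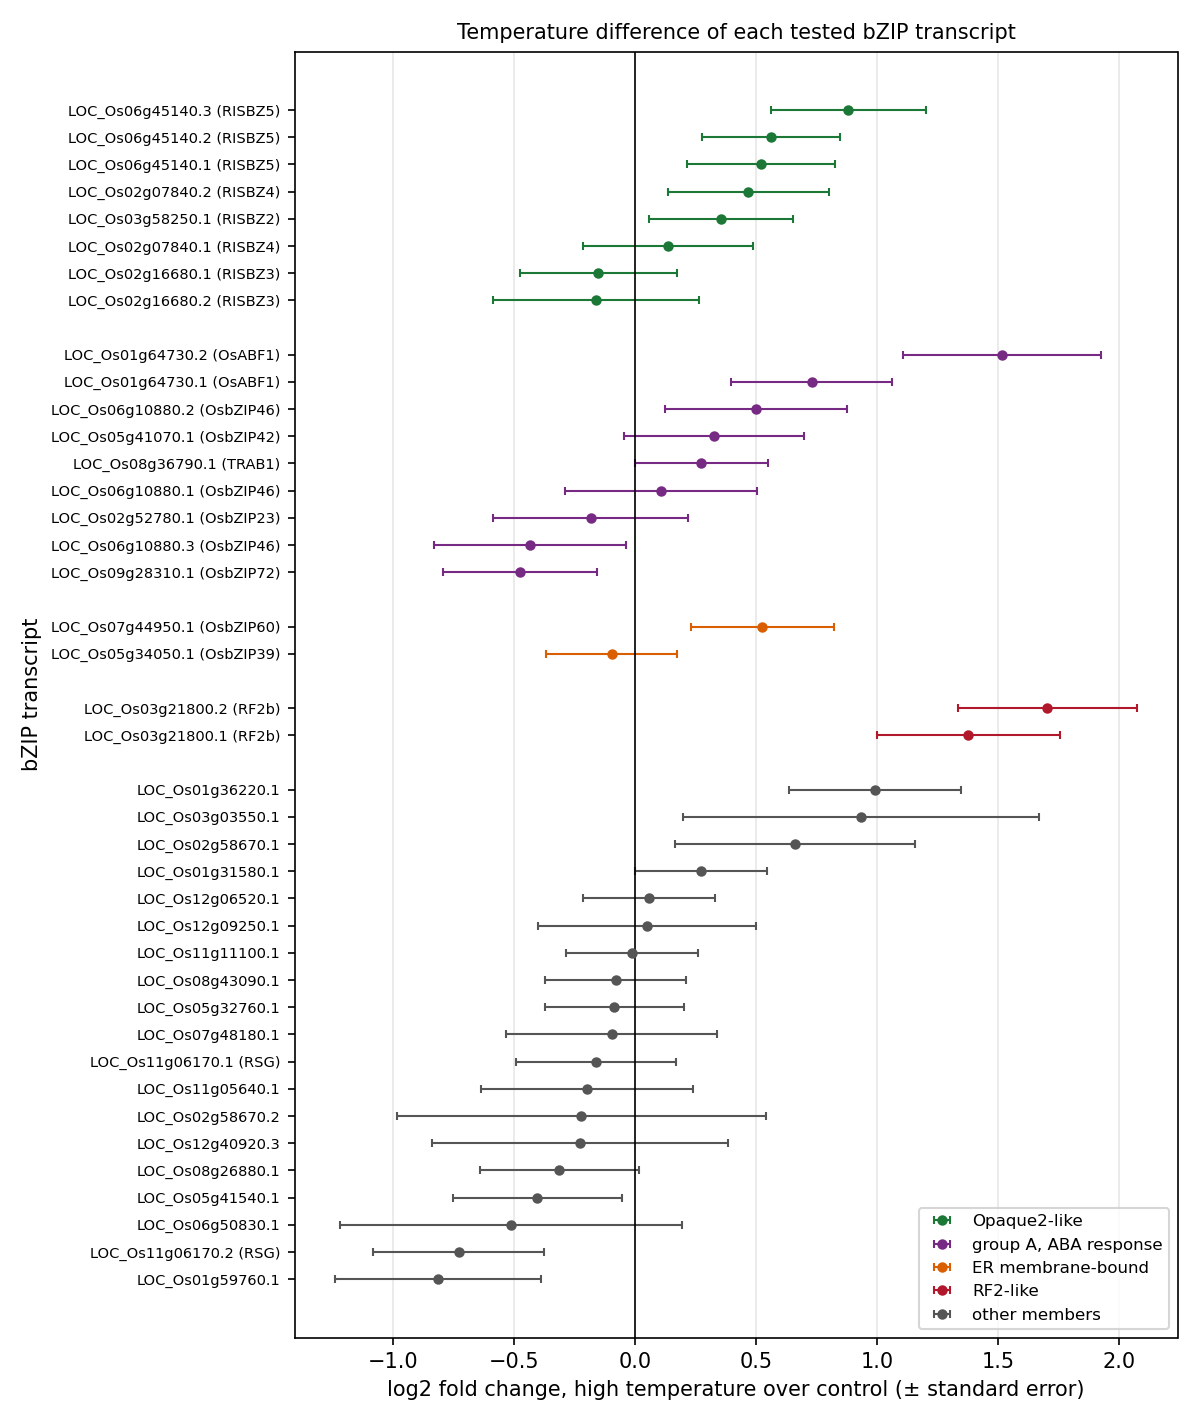
log2 fold change of high temperature over control with its standard error for each of the 40 tested bZIP transcripts, grouped by role. RF2b (1.70 and 1.38) and model 2 of OsABF1 (1.51) lie farthest to the right, and the lowest value is -0.82.

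Of the 19 tested members outside these groups, 6 had a log2 fold change above 0 (50.2% of all tested transcripts), 3 lay above both controls (19.1% of all) and 3 below (17.7% of all), and the median was -0.10. LOC_Os01g36220.1 had 8.82 and 5.01 RPKM at high temperature, from 92 and 54 reads, against 3.52 and 3.41 RPKM at control temperature, from 80 and 31 reads. Its controls agreed closely while its high temperature libraries lay far apart, both above the controls. The log2 fold change was 0.99 ± 0.36 (standard error, unadjusted p = 0.0236, adjusted p = 0.649 in edgeR), or a 1.99-fold difference, and 0.53 without high temperature replicate 1.

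The lowest log2 fold changes, given here after the values were seen, were those of LOC_Os01g59760.1 and LOC_Os11g06170.2. LOC_Os01g59760.1 had 1.0 and 1.26 RPKM at high temperature, from 10 and 13 reads, against 2.20 and 1.72 RPKM at control temperature, from 48 and 15 reads (log2 fold change -0.82 ± 0.43, standard error, adjusted p = 0.780, edgeR). LOC_Os11g06170 is described as RSG, which in tobacco activates a gene of gibberellin synthesis. Its model LOC_Os11g06170.2 had 4.25 and 4.27 RPKM at high temperature against 5.63 and 8.82 RPKM at control temperature (log2 fold change -0.73, standard error 0.35, edgeR adjusted p = 0.745). The model LOC_Os11g06170.1 had 1.95 and 2.56 RPKM against 2.13 and 2.99 RPKM, and overlapped. Both transcripts with the lowest values lay below the controls in both high temperature libraries, with differences of about 2 standard errors.

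Other genes of the family and proteins that act on it were read from lists of locus IDs. In the lists of TGA, G-box binding, group A, HY5-like, RF2-like and small bZIP factors, 51 transcripts of 23 genes are not described as bZIP, and 43 of them were tested. None had an unadjusted p-value under 0.05 (6.94% of all tested transcripts), 5 lay above both controls (11.6%, against 19.1% of all) and 11 below (25.6%, against 17.7% of all), and the median log2 fold change was 0.00. The changes ran from -1.04 to 0.90. The highest was that of LOC_Os01g07880.1, which the table describes as HY5. It had 13.6 and 7.60 RPKM at high temperature against 4.57 and 7.03 RPKM at control temperature (standard error 0.40, edgeR adjusted p = 0.725). Of the 26 tested transcripts of the TGA list 3 lay above (11.5%, against 19.1% of all) and 10 below (38.5%, against 17.7% of all). The 10 are models of LOC_Os03g20310, LOC_Os04g54474, LOC_Os08g07970 and LOC_Os09g31390, and models of the same gene share reads. TGA factors are known for their part in salicylic acid signalling, and the list includes LOC_Os01g06640, a locus the table describes otherwise. Of 17 tested transcripts of the SnRK2 kinases SAPK1 to SAPK10, none was higher at an unadjusted p-value under 0.05 (4.15% of all tested transcripts). Lower at that threshold was 1 of the 17 (2.79% of all). It was LOC_Os04g35240.1 (SAPK7), with a log2 fold change of -0.63 (unadjusted p = 0.0436, adjusted p = 0.716, edgeR). Of 13 tested transcripts of VP1, RPBF, NH1 to NH3, COP1 and IRE1, none had an unadjusted p-value under 0.05 (6.94% of all tested transcripts). Their median log2 fold change was 0.17.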

How the data were processed

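The authors deposited 1 table of read counts per transcript model (uniquely mapped reads that overlap exons, per the study's methods), with transcript lengths. The aligner and the genome build are not given in the sources used here. Its 4 columns headed RPKM were not used, and RPKM was computed from the counts and lengths. NA cells, 7 or fewer per library among the 70 members, were read as 0. Conditions and replicate numbers came from the sample titles. Column totals were taken as depth, and the number of libraries (2 per temperature) limits every difference. Transcripts that reached 1 CPM in 2 or more libraries were tested with edgeR 4.0.16 (R 4.3.3), by the quasi-likelihood test after TMM scaling and without a replicate block. The p-values were adjusted by Benjamini-Hochberg over all of them. The common dispersion was 0.0746, and a standard error is the absolute log2 fold change over the square root of the F statistic. An exact permutation test of 2 against 2 cannot go below 0.333 and was not used. Levels are reads per kilobase and per 1000000 of the TMM-scaled total of tested transcripts. The fit was also run on simulated data, with changes larger than any of the tested members, so that run does not cover changes of their size. Alternatives covered filters, scaling, DESeq2 1.42.0, limma 3.58.1, a replicate block, 1 transcript per gene and each library left out. Transcripts named by rule, 23 in all, were 1 per gene of the role lists, those with an unadjusted p-value under 0.05 and the 10 of highest RPKM. Other transcripts given in the text are not among the 23, such as further models of these genes, the lowest log2 fold changes and examples below the filter. The members and lists were chosen with earlier results of these data known. A list of group F factors was not used, because some of its loci are described otherwise in the table. Coordinates and sequences are not given, since the supplied gene table matched 0 of the 55 gene IDs.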

Additional observations from a re-analysis of the deposited data

How the results depend on the processing

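The count of 0 bZIP transcripts with an adjusted p-value under 0.05 held in every alternative except edgeR without the filter on low counts (2, both of RF2b) and a crossed replicate block. Over all transcripts the count was 365 without the filter, 33 with total counts only, 58 with DESeq2 and 1 with limma, and 0 to 345 with 1 library left out (345 when control replicate 2 was left out, 42 when control replicate 1 was). The number of bZIP transcripts with an unadjusted p-value under 0.05 was 6 of 67 without the filter and 4 of 26 at a minimum of 5 CPM. It was 3 of 40 with total counts only, 3 of 40 with DESeq2, 5 of 40 with limma and 2 of 32 with 1 transcript per gene. The share of all transcripts with such a p-value was not computed for these fits or for those with a replicate block. The counts are therefore not read as a result about the family. The replicate block gave 0 adjusted calls and 4 bZIP transcripts with an unadjusted p-value under 0.05. Same-numbered libraries deviated in opposite directions (correlation -0.36), and a crossed replicate block, added after the data were seen, called 828 transcripts, 3 of them bZIP (both models of RF2b and model 2 of OsABF1), with 8 bZIP transcripts at an unadjusted p-value under 0.05. The cause was not tested. The median log2 fold change of the members stayed between 0.01 and 0.21. Of the 23 transcripts named by rule, 13 kept their sign in every alternative. LOC_Os07g48180.1 changed sign with total counts only (0.032), with limma (0.035), with the replicate block (0.044) and with the crossed replicate block (0.046). With 1 library left out, the sign of 10 of these 23 transcripts changed in at least 1 fit. The log2 fold changes ran for LOC_Os02g07840.1 from -0.23 to 0.52, for LOC_Os05g32760.1 from -0.24 to 0.069, for LOC_Os05g34050.1 from -0.28 to 0.039, for LOC_Os05g41070.1 from -0.27 to 0.72, for LOC_Os06g10880.1 from -0.28 to 0.48, for LOC_Os08g43090.1 from -0.33 to 0.11, for LOC_Os02g16680.1 from -0.46 to 0.078, for LOC_Os11g11100.1 from -0.090 to 0.051, for LOC_Os12g06520.1 from -0.042 to 0.15 and for LOC_Os07g48180.1 from -0.66 to 0.75.
Depth limits the 30 untested members, of which none had more than 25 reads in a library, and the number of libraries limits the rest, with standard errors from 0.27 to 0.76.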
